A study of Homo sapiens with 4 samples.

Results

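The departure from additivity of fulvestrant and neratinib was described for 4951 of the 33538 genes in the count table, in BT474 cells. For each gene, the level with both drugs was set against the level that the responses to the single drugs add up to. The 4951 genes were those with a mean of at least 20 CPM over the 4 libraries, where CPM is the UMI count of a gene scaled to a library total of 1000000, and a UMI is a molecular tag that marks a counted RNA molecule. BT474 is an established human breast cancer line of luminal type, positive for the estrogen receptor and with extra copies of the HER2 gene ERBB2. All 4 groups were BT474 cells in serum-containing medium, treated for 4 h and read by droplet single-cell RNA-seq. They received the vehicle DMSO, fulvestrant at 100 nM, neratinib at 200 nM, or fulvestrant at 100 nM with neratinib at 200 nM. Each group was 1 library of 1 line, so replicate error could not be measured and groups were not tested against each other.

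The estrogen receptor is a hormone-bound transcription factor that luminal breast cells use to drive growth genes such as MYC, and fulvestrant is an antagonist that also leads to its degradation. HER2 and its relatives are receptor tyrosine kinases that signal through the ERK and PI3K cascades, and neratinib is an irreversible inhibitor of these kinases. Both routes are known to feed into the same growth programme, in which MYC drives the making of ribosomes, and kinase signalling can act on the estrogen receptor itself. If each drug multiplies a gene's level by its own factor whether or not the other is present, the log2 ratios to DMSO add up and the departure is 0. The log2 departure is log2 CPM with both drugs, minus log2 CPM with fulvestrant, minus log2 CPM with neratinib, plus log2 CPM with DMSO. It equals the fulvestrant response in the presence of neratinib minus the fulvestrant response without it, and likewise for neratinib. A gene was counted as above or below additivity where its log2 departure was at least 0.32 in size, which is 25% above the expected level or the inverse of that fold. This size is called the limit in what follows. Square brackets hold 95% intervals, which cover counting error only.

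Cells were barcodes with at least 5000 UMIs, at least 500 genes and at most 50% mitochondrial UMIs, which left 4240 DMSO cells, 3394 fulvestrant cells, 3433 neratinib cells and 3800 cells given both drugs. These held 82173894 to 101920190 UMIs per library. All 10 BT474 markers were above 1 CPM in every library, with a summed level of 6949 to 10271 CPM. The 4 basal markers summed to at most 0.544 CPM, the 5 immune markers to at most 1.74 CPM and the 4 endothelial markers to at most 2.50 CPM. Of the 5 fibroblast markers only COL1A1 was above 1 CPM, and the sum was 10.2 to 12.4 CPM. Median mitochondrial shares per cell were 16.2% (DMSO), 16.6% (fulvestrant), 21.0% (neratinib) and 21.0% (both drugs). Of the cell barcodes, 22 occurred in more than 1 library.

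Most genes were near additivity. The median log2 departure over the 4951 genes was 0.00, with 5th and 95th percentiles of -0.14 and 0.15, and 4426 genes (89.4%) were within 1.1-fold of the expected level. The SD over genes was 0.092, and it was 0.106 among the 2583 genes of 20 to 50 CPM and 0.062 among the 220 genes above 500 CPM. The median half-width of the 95% counting interval was 0.089, a wider measure than an SD of counting error. This interval was off 0 in 1638 genes (33.1%), and in 75.5% of the genes above 500 CPM. An interval off 0 was thus common and does not set a gene apart. Past the limit, 11 genes (0.222% of those measured) were above additivity and 15 (0.303%) below, 26 (0.525%) in all. The 11 included 3 genes of the ribosome biogenesis list, among them DDX21 with the highest value of all. The 15 included 4 estrogen receptor targets, and MYC, TSKU and AREG of that list had the 3 lowest values. Both lists were written with earlier results of these data known, so these counts are a description only. Many more genes differed by at least the limit between a single drug and DMSO. With neratinib 1511 genes (30.5%) were lower and 359 (7.25%) higher than with DMSO, and with fulvestrant 37 (0.747%) were lower and 12 (0.242%) higher.

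**Figure D1:**
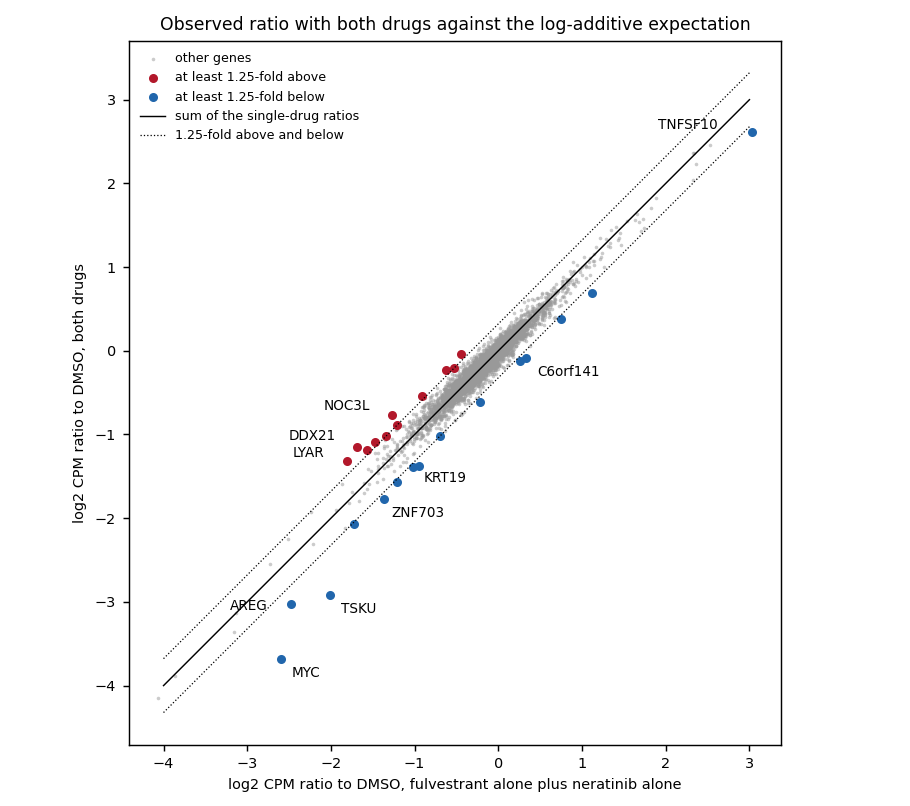
Log2 CPM ratio of both drugs to DMSO (vertical axis) against the sum of the log2 ratios of the single drugs (horizontal axis), 1 point per gene for 4951 genes. The 11 genes past the limit above the diagonal are red and the 15 past it below are blue. MYC lies farthest from the line, at -1.08.

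PNP (0.32) was the last gene inside the limit above additivity, and PAK1IP1, whose departure also rounds to 0.32, was just outside. FAM102A (-0.33) was the last inside the lower limit and KDM6B (-0.32) the first outside. Of the 26 genes past the limit, 13 were under 20 CPM in at least 1 library and entered through their mean. At the filter on level, ERI2 (departure -0.04) was the last gene inside and CCDC174 (0.03) the first outside.

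Promoters of the genes above additivity are shown because 5 of them hold the same short motif. RefSeq promoters (assembly GRCh38.p14, 250 bases before to 50 after the annotated start) were at hand for 18 of the 26 genes, 8 above and 10 below. The E-box CACGTG, a 6-base site known to be bound by MYC with its partner MAX, reads the same on both strands and overlaps no other motif searched. It was present in a promoter of 5 of these 8 genes above additivity and of 1 of the 10 below, MEX3D. DDX21 and LYAR each have another listed start whose promoter does not hold it. Among all measured genes with a promoter, 542 of 4007 (13.5%) held it. At the wider size of 1.1-fold the shares were close to that, 38 of 230 genes above (16.5%) and 19 of 182 below (10.4%). Of single promoters the motif was in 2548 of all 35116 given (7.26%). The estrogen response element (GGTCA, then 3 bases of any kind, then TGACC, also the same on both strands) was in no promoter of the 18 genes and in that of 1 of the 4007. A match describes these letters in this window only. The 5 promoters with the E-box, the motif in capitals, read 5′ to 3′ on the strand of the gene as follows:
DDX21, chr10:68956397-68956696, plus strand: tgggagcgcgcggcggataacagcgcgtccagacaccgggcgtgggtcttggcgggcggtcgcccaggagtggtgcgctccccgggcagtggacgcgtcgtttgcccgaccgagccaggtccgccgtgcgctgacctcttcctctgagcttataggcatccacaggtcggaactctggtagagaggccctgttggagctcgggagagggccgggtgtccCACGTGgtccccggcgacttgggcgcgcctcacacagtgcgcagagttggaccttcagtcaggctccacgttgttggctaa
NOC3L, chr10:94362890-94363189, minus strand: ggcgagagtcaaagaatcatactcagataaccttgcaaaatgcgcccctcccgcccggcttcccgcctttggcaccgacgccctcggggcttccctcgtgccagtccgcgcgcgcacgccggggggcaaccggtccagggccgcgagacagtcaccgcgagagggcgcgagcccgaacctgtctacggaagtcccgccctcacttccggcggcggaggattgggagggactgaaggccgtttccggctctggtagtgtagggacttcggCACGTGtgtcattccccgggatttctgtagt
LYAR, chr4:4289972-4290271, minus strand: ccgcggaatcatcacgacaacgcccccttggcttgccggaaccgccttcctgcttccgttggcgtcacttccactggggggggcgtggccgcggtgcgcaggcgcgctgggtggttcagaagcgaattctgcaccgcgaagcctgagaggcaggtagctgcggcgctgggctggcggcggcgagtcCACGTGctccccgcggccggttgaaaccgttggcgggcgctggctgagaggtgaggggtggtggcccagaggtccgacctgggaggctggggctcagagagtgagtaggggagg
TXLNG, chrX:16786216-16786515, plus strand: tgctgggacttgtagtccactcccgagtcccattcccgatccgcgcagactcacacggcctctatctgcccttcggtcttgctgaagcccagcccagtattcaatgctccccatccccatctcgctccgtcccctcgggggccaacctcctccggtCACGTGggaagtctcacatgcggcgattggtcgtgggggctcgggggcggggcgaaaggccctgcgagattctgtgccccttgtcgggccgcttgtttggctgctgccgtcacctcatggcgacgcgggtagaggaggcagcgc
WDR43, chr2:28894417-28894716, plus strand: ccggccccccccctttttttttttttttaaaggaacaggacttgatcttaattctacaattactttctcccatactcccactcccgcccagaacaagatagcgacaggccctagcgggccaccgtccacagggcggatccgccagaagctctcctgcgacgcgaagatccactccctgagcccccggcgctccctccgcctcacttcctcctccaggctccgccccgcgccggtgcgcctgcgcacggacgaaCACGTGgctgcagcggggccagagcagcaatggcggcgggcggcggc
The distance of the E-box from the annotated start differed among them, at 31 bases before it in DDX21, 64 before in LYAR and 94 before in TXLNG, while in WDR43 and NOC3L it lay 3 and 19 bases after it.

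DDX21, an RNA helicase of the nucleolus, had the highest departure of all measured genes. Its level was 115 CPM in the DMSO library, 84.7 with fulvestrant, 48.5 with neratinib and 51.6 under both drugs, a log2 departure of 0.53 [0.45, 0.60]. Each drug alone gave a lower level than DMSO, yet the combination was no lower than neratinib alone. NOC3L, a factor of large-subunit assembly and replication licensing, was at 31.7, 24.6, 16.9 and 18.6 CPM in the same order, with a departure of 0.50 [0.37, 0.63]. LYAR, a nucleolar zinc finger protein whose gene holds an E-box in the sequence above, was at 33.0, 23.0, 13.5 and 13.3 CPM, with 0.50 [0.35, 0.64]. In each of the 3, fulvestrant alone gave a lower level than DMSO, while fulvestrant added to neratinib gave a level close to or above that of neratinib alone.

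The same shape recurred in other genes of ribosome assembly. WDR43, a component of the small-subunit processome, was at 38.3, 27.9, 17.7 and 16.9 CPM in the order DMSO, fulvestrant, neratinib and both drugs, a departure of 0.39. NIFK, which binds the proliferation antigen Ki-67 and takes part in rRNA processing, was at 63.2, 46.9, 30.7 and 29.6 CPM, a departure of 0.38. RPF2, which helps load 5S ribosomal RNA, was at 30.5, 24.7, 14.8 and 15.1 CPM, a departure of 0.33. In each, fulvestrant alone was below DMSO while both libraries with neratinib were close to each other. TWISTNB, the former symbol of an RNA polymerase I subunit, was at 36.7, 33.2, 21.6 and 25.3 CPM, a departure of 0.37. PNP, the purine salvage enzyme, was at 31.5, 30.0, 14.3 and 16.996 CPM, a departure of 0.32. For these last genes the combination was above neratinib alone.

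In 3 further genes above additivity the level with the combination was above that of each single drug over all cells. UTP23, also a processome factor, was at 26.9, 22.7, 23.3 and 26.1 CPM, a departure of 0.40 [0.28, 0.53]. The vesicle-transport gene TXLNG was at 38.3, 30.9, 30.7 and 32.6 CPM, a departure of 0.40. ZC3H8, a zinc finger protein of the complex that transcribes small nuclear RNA, was at 35.8, 29.3, 30.2 and 31.1 CPM, a departure of 0.33. In all 3, each single drug gave a level below DMSO. The step from a single drug to both was within counting error in ZC3H8 against neratinib (log2 ratio 0.04 [-0.04, 0.12]). The same held in TXLNG against fulvestrant (0.074 [-0.002, 0.151]). By phase the combination was above each single drug throughout in UTP23 only. In S cells TXLNG was at 31.6 CPM with both drugs, 34.8 with fulvestrant and 31.8 with neratinib. ZC3H8 with both drugs was at 29.0 CPM in S cells, against 30.8 with neratinib. In G2M cells it was at 32.3 CPM, against 33.1 with fulvestrant. In their other phases both genes were above each single drug. PAK1IP1, a nucleolar regulator just under the limit, was at 35.9, 26.97, 10.1 and 9.47 CPM.

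**Figure D2:**
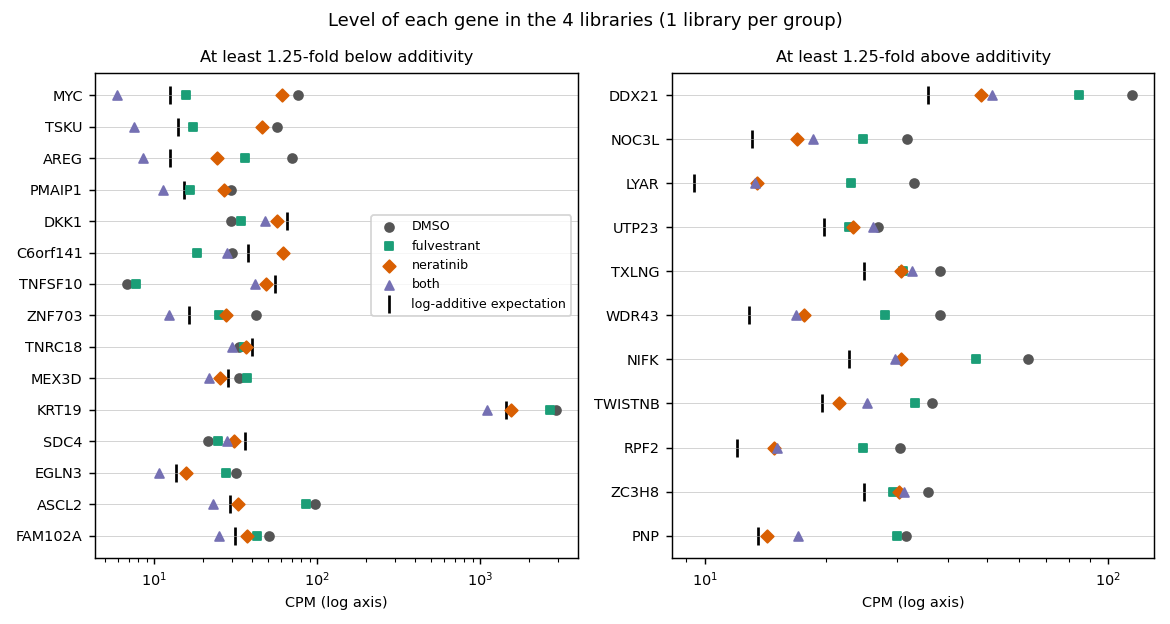
CPM in the 4 libraries (horizontal log axis, 1 library per group) for the 15 genes below additivity (left) and the 11 above (right), 1 gene per row, with the level expected from the single drugs as a black bar. In DDX21 the observed 51.6 CPM with both drugs was above the expectation, and in MYC the observed 5.93 CPM was below it.

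A wider list of ribosome biogenesis genes was shifted as a group. Of its 56 genes 30 passed the filter on level, and 28 of these 30 had a departure above 0, with a median of 0.18 beside 0.00 over all genes. Past the limit 3 of the 30 were above (DDX21, LYAR and WDR43) and 0 below. At 1.1-fold 20 of the 30 were above and 0 below, where 5.8% of all genes were above and 4.81% below. RRP1B, a ribosomal RNA processing protein, was at 0.31, GNL3, the nucleolar GTPase nucleostemin, at 0.29, NIP7, a pre-rRNA processing factor, at 0.29, and NCL, the major nucleolar protein nucleolin, at 0.23. The exceptions were FBL, the rRNA methyltransferase fibrillarin, at 0.00 [-0.06, 0.06] and NOP10, a subunit of the pseudouridylation particle, at -0.03. The list's median log2 ratio was -0.23 for fulvestrant against DMSO but -0.03 for both drugs against neratinib, and -0.68 for neratinib against DMSO but -0.44 for both drugs against fulvestrant. Of the promoters of this list 12 of 24 held the E-box.

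Other lists of growth genes also had medians above 0, and differences between lists were not tested. Translation factors had a median departure of 0.06, with 25 of 32 above 0. The 2 of them past 1.1-fold are a share near that of all genes, and include EEF1E1, a scaffold protein of the tRNA synthetase complex, at 0.26. Polyamine and nucleotide enzymes had a median of 0.06, with 15 of 18 above 0, and spermidine synthase SRM was highest at 0.23. All 5 measured host genes of small nucleolar RNAs were above 0, from 0.01 to 0.27 in SNHG15, with a median of 0.14. Of the 18 host genes written in this list only 9 were found in the count table. In S cells its median was 0.01. Targets of ATF4, the factor of the amino acid response, had a median of 0.04, and the amino acid transporter SLC38A2 was at 0.25. In S cells the medians of polyamine and nucleotide enzymes and of ATF4 targets were not above 0, at -0.00 and -0.05. In cells above 20% mitochondrial UMIs these medians were near 0, at 0.00 and -0.01. There translation factors were at 0.02, while the host genes of small nucleolar RNAs were at 0.16. For the genes of the ribosome itself the values were centred on 0: the 83 measured cytosolic ribosomal protein genes had a median of 0.00, with 2 above and 1 below at 1.1-fold.

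Below additivity, MYC was the lowest of all measured genes. This growth-driving transcription factor was at 75.9 CPM in the DMSO library, 15.7 with fulvestrant, 60.8 with neratinib and 5.93 under both drugs. If the log2 responses added, 12.6 CPM would be expected with both drugs, 2.12-fold above the observed level, so the departure was -1.08 [-1.24, -0.93]. The fulvestrant ratio was -2.28 without neratinib and -3.36 with it. TSKU, which encodes a secreted proteoglycan, was at 56.8, 17.4, 46.1 and 7.53 CPM in the same order, a departure of -0.90 [-1.05, -0.76]. The log2 ratio of neratinib alone to DMSO was -0.32 for MYC and -0.30 for TSKU, and the combination was the lowest of the 4 libraries in both genes.

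Further genes that were lower with fulvestrant were below additivity by less. AREG, which encodes the EGFR ligand amphiregulin, was at 69.5, 35.9, 24.3 and 8.54 CPM in the same order, a departure of -0.55 [-0.69, -0.42]. PMAIP1, which encodes the pro-apoptotic BH3 protein NOXA, was at 29.4, 16.6, 26.95 and 11.3 CPM, with -0.43 [-0.57, -0.29]. ZNF703, a luminal transcription repressor gene, was at 42.0, 24.8, 27.6 and 12.3 CPM, with -0.41 [-0.53, -0.28]. In all 3 the combination gave the lowest of the 4 levels. In the estrogen receptor target list, MYC, TSKU, AREG and PMAIP1 were below past the limit, 4 of 24 measured genes, and 0 were above. Over all genes 0.303% were below and 0.222% above. At 1.1-fold 8 of the 24 were below and 1 above, where 4.81% of all genes were below and 5.8% above. The list's median was -0.06, with 14 members below 0 and 10 above.

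Over all cells, several classical targets were within 1.1-fold of additivity. GREB1, a receptor cofactor, was at 42.2, 22.3, 51.0 and 28.5 CPM in the order DMSO, fulvestrant, neratinib and both drugs, a departure of 0.08 [-0.03, 0.18]. The progesterone receptor gene PGR was at 143, 81.9, 173 and 93.6 CPM, a departure of -0.08. The secreted trefoil factor gene TFF1 had a departure of 0.03. In GREB1 and PGR fulvestrant gave a lower level and neratinib a higher one, and their combination lay between the single drugs. Within phases GREB1 was at 0.24 [0.08, 0.40] in G1 cells and PGR at -0.21 [-0.32, -0.11] in G2M cells. The ubiquitin ligase gene SIAH2 was at 0.06 in all cells, while the homeobox gene MSX2, at -0.18, was past 1.1-fold.

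The receptors and the direct readouts of HER2 signalling were partly outside the filter on level. ESR1, the estrogen receptor gene, did not pass, at 14.6, 11.98, 18.2 and 12.7 CPM in the 4 libraries, with a departure of -0.24 [-0.40, -0.08]. ERBB2 was at 973, 1016, 951 and 908 CPM, a departure of -0.13 [-0.15, -0.11]. Its signalling partner ERBB3 was at -0.06 [-0.12, 0.01]. Of 19 genes of ERK output only 3 passed, the phosphatase gene DUSP4 at -0.29, the cyclin gene CCND1 at -0.20 [-0.28, -0.12] and the early response gene IER3 at 0.01. CCND1 was at 0.12 [-0.07, 0.32] in S cells. DUSP6, the ERK phosphatase gene most used as a readout, was under the filter, at 13.0, 12.3, 1.55 and 1.20 CPM, with a departure of -0.29 [-0.69, 0.10] whose interval reached past 0. The 20 measured genes of the TIP60 complex and BET proteins had a median of 0.00 and 0 past 1.1-fold in either direction. BRD8, the bromodomain subunit of TIP60 named in the study's title, was at 23.3, 22.4, 59.0 and 58.9 CPM, a departure of 0.06 [-0.05, 0.16].

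Other genes below additivity were higher with neratinib alone than with DMSO. TNFSF10, which encodes the death ligand TRAIL and is a FOXO target, was at 6.77 CPM in the DMSO library, 7.70 with fulvestrant, 48.5 with neratinib and 41.3 under both drugs, a departure of -0.42 [-0.59, -0.25]. DKK1, a secreted WNT antagonist gene, was at 29.8, 33.9, 57.0 and 48.1 CPM, with -0.43 [-0.53, -0.33]. C6orf141 was at 29.95, 18.2, 62.0 and 28.1 CPM, with -0.42, so that the combination was slightly below DMSO. Over all cells, in TNFSF10 and DKK1 fulvestrant alone was slightly above DMSO, yet fulvestrant with neratinib was below neratinib alone. SDC4, the heparan sulfate proteoglycan syndecan 4, was at 21.4, 24.8, 31.0 and 27.9 CPM, with -0.37. Of the 22 measured FOXO targets, 17 were below 0, with a median of -0.06, and the growth inhibitor gene YPEL3 was at -0.28. At 1.1-fold 5 of the 22 were below and 2 above, beside 4.81% and 5.8% of all genes. In cells above 20% mitochondrial UMIs the median of this list was not below 0, at 0.02.

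The remaining genes below additivity were mostly lower with neratinib. KRT19, a luminal keratin, was at 2904, 2693, 1543 and 1106 CPM in the order DMSO, fulvestrant, neratinib and both drugs, a departure of -0.37 [-0.39, -0.36]. With 99860 UMIs in the library with the fewest, its interval was the narrowest among the 26. EGLN3, the oxygen-sensing prolyl hydroxylase, was at 31.6, 27.6, 15.6 and 10.7 CPM, with -0.35. The RNA-binding protein gene MEX3D was at 32.9, 37.1, 25.2 and 21.6 CPM, with -0.39. TNRC18, a chromatin protein gene, was at 32.9, 35.65, 36.5 and 30.1 CPM, with -0.39, although each single drug gave a level above DMSO. ASCL2, a WNT-responsive transcription factor, was at -0.34 and FAM102A at -0.33. These last genes are outside the naming rule and complete the list of 15.

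Luminal transcription factors leaned below additivity as a list. Of 21 measured luminal factors and receptor cofactors, 15 were below 0, with a median of -0.07, 5 below and 1 above at 1.1-fold (4.81% and 5.8% of all genes). GATA3, which specifies the luminal lineage, was at 221, 285, 135 and 144 CPM in the 4 libraries, a departure of -0.28 [-0.33, -0.24]. The secretory-pathway factor XBP1 was at -0.20 and the epithelial factor EHF at -0.20. For GATA3 fulvestrant alone was above DMSO by more than the combination was above neratinib. G2M genes of cell division had a median of -0.05, with 39 of 47 below 0 and 9 below at 1.1-fold, beside 4.81% of all genes, among them the centromere histone gene CENPA at -0.20 and the mitotic cyclin gene CCNB2 at -0.18. Cells called G2M from phase scores, which draw on this same list, made up 24.98%, 22.9%, 27.1% and 23.7% of the 4 libraries. Within G1, S and G2M cells the list's median was -0.02, -0.04 and -0.05. The part of the phase shares in this list's values was not tested.

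Most other gene lists were centred near 0. The medians were 0.04 for 17 heat shock genes, 0.01 for 29 S phase genes, 0.01 for 23 genes of autophagy and lysosome, -0.01 for 12 fatty acid synthesis genes, -0.01 for 17 genes of the unfolded protein response and -0.04 for the 13 mitochondrial transcripts. None of these lists had a member past the limit. Among 16 genes of glycolysis and hypoxia the median was -0.06, with 13 below 0, and EGLN3 was the single member past the limit. The 46 nuclear genes of the respiratory chain lay between -0.09 and 0.07, so that 0 of them reached 1.1-fold.

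**Figure D3:**
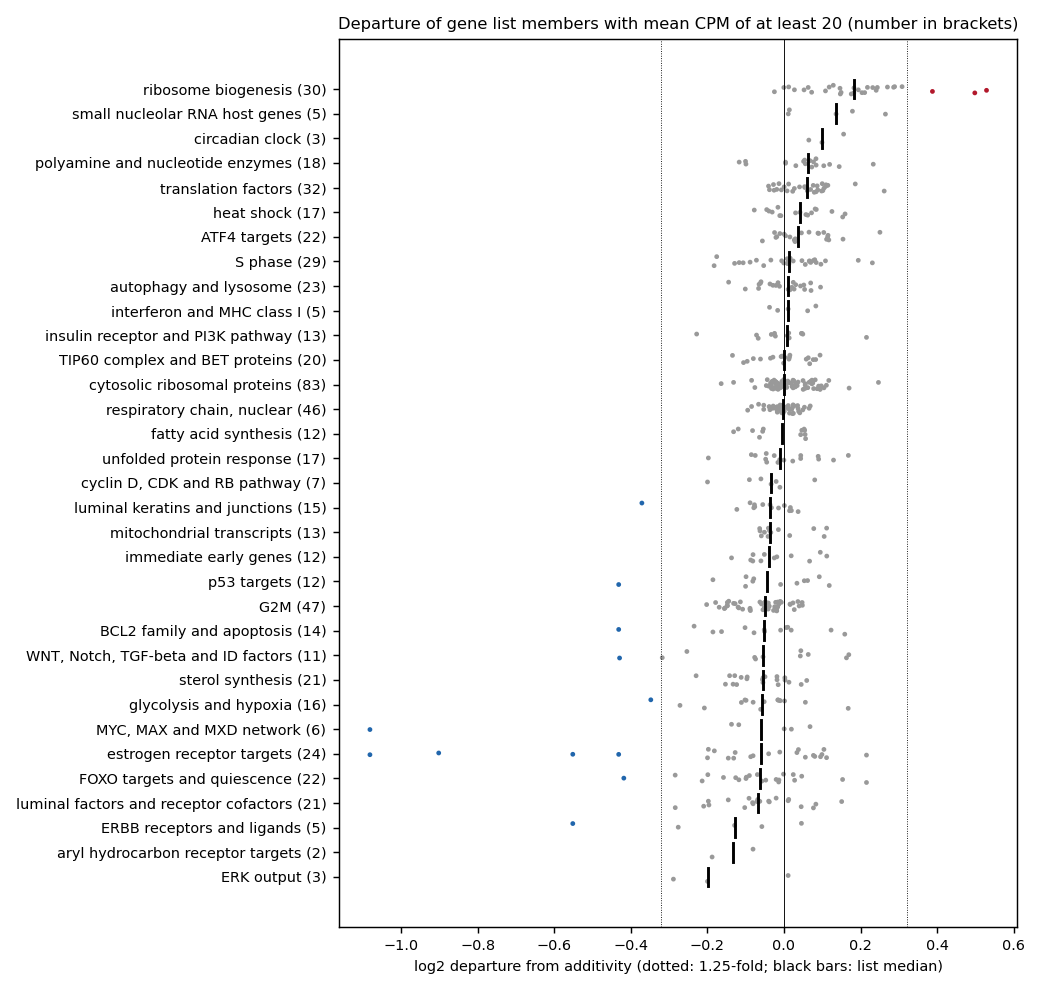
Log2 departure (horizontal axis) of each measured gene in the gene lists (rows), with the list median marked; 1 point per gene. The ribosome biogenesis list has its median at 0.18, while the estrogen receptor target list has a median of -0.06 and its lowest gene, MYC, at -1.08.

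The departures were also read by how each gene responded to the single drugs, a grouping that shares 3 of the 4 libraries with the departure and is given as a description. The 18 genes that were lower than DMSO past the limit with each drug had a median departure of 0.25. Of these, 5 were above past the limit (DDX21, NOC3L, LYAR, WDR43 and NIFK) and 2 below (AREG and ZNF703). Their median fulvestrant ratio was -0.42 without neratinib and -0.22 with it, and in 16 of the 18 the combination was below each single drug. The 16 genes lower with fulvestrant only had a median of -0.02, and 3 of them, MYC, TSKU and PMAIP1, were below past the limit. MYC was close to the other class, since its neratinib ratio rounds to the limit without reaching it. The 1489 genes lower with neratinib only had a median of 0.02 and the 352 higher with neratinib only a median of -0.02.

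Small classes with opposite single-drug responses were scattered. Of the 3 genes lower with fulvestrant and higher with neratinib, C6orf141 was at -0.42, the kinase gene SGK3 at -0.13 and the growth factor receptor gene IGF1R at 0.22. The 4 genes higher with fulvestrant and lower with neratinib were GATA3, SLITRK6, PRR15 and the mevalonate pathway gene MVD, all of them below by at least 1.1-fold. The 4 genes higher with each drug, HSD17B7, MSMO1, INSIG1 and DDIT4, were near additivity, with a median of 0.03. HSD17B7 and MSMO1 are sterol synthesis enzymes and INSIG1 a sterol sensor. The 21 measured sterol synthesis genes as a whole had a median of -0.05, with 16 below 0 and 0 past the limit. At 1.1-fold 3 of the 21 were below and 0 above, beside 4.81% and 5.8% of all genes.

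On a linear scale the question is whether the drugs add in CPM, so the departure is CPM with both drugs minus fulvestrant minus neratinib plus DMSO. A gene was counted when this reached 25% of its mean CPM. There were 15 genes (0.303%) above and 8 (0.162%) below. All 11 genes above on the log2 scale were above 0 on the linear scale, and 8 of them passed 25%. Of the 15 genes below on the log2 scale, 5 had a linear departure above 0 and 5 passed 25% below. MYC was one that turned, at 5.36 CPM [2.76, 7.95], since the linear expectation was only 0.574 CPM. TSKU was at 0.927 CPM [-1.42, 3.26], which includes 0.

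AREG was the only gene past both size rules with opposite signs. Its single-drug losses summed to more than its level with DMSO, so the linear expectation was -9.41 CPM and the linear departure 17.9 CPM, 51.9% of its mean. CCND1, at 315, 246, 45.2 and 30.7 CPM, also had a linear expectation below 0, at -24.4 CPM, and a linear departure of 55.1 CPM. The ribosome biogenesis gene RRS1 and SNHG15 were the other 2 genes with a linear expectation at or below 0. Over all genes, 166 were below 0 on the log2 scale and above 0 on the linear scale, and 57 the reverse.

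Leaving out mitochondrial and ribosomal protein genes, the greatest linear departures belonged to abundant genes. MALAT1, a nuclear long noncoding RNA, was at 35468, 36230, 36058 and 39821 CPM, a linear departure of 3001 CPM but a log2 departure of only 0.11. IGFBP5, a secreted binding protein of insulin-like growth factors, was at 1586, 1088, 1241 and 999 CPM, with 256 CPM and 0.23 [0.21, 0.25]. The others of the 8 highest were the chaperone gene HSP90AB1 at 144 CPM, the actin gene ACTG1 at 116, the trefoil factor gene TFF3 at 110, the small mucin gene MUCL1 at 88.4, NCL at 81.7 and the vitamin B12 carrier gene TCN1 at 68.9. The lowest outside those classes were FTH1, the ferritin heavy chain, at -396 CPM and KRT19 at -225 CPM. The actin-binding gene TMSB4X, the elongation factor gene EEF1A1 and the glycolytic gene GAPDH were at -132, -131 and -122 CPM, and PPDPF at -106 CPM. ERBB2 was at -85.9 CPM and the growth factor gene MDK at -71.0 CPM.

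**Figure D4:**
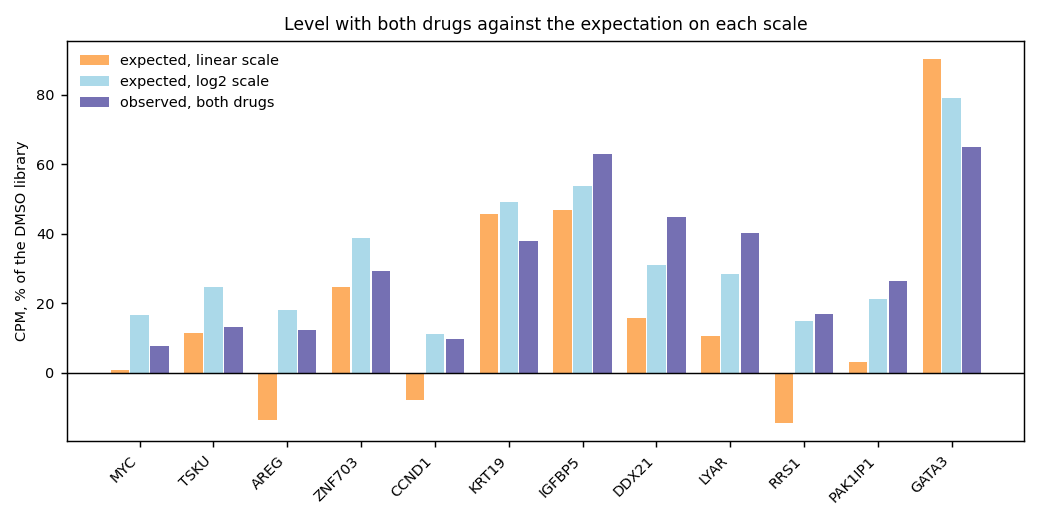
Level with both drugs, as a percentage of the DMSO library (vertical axis), for 12 genes beside the expectation on the log2 and the linear scale; 1 library per group. For AREG and CCND1 the linear expectation is below 0, and for DDX21 the observed level is above both expectations.

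Departures were recomputed within cells called G1, S or G2M and within cells of low or high mitochondrial share, since those shares differed between libraries. MYC was at -1.30 in G1, -0.70 in S and -0.88 in G2M cells, and at -1.05 in cells up to 20% and in those above 20% mitochondrial UMIs. DDX21 was at 0.59, 0.49 and 0.47 by phase and at 0.53 and 0.54 by mitochondrial share. KRT19 was at -0.41, -0.29 and -0.34 by phase. Each of these genes stayed on its side of 0 in all 5 classes of cells. The ribosome biogenesis list had medians of 0.21, 0.12 and 0.15 by phase.

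Other genes varied more between classes of cells. TNFSF10 was at -0.42 in cells up to 20% mitochondrial UMIs but at -0.18 [-0.55, 0.19] in those above, which were 2116 of the 3433 neratinib cells and 2337 of the 3800 cells with both drugs. AREG was at -1.11 in G1 cells, 0.15 in S cells and -0.44 in G2M cells. DKK1 was at -0.04 in G1, -0.55 in S and -1.05 in G2M cells, and at -0.65 in cells up to 20% against 0.00 in cells above 20% mitochondrial UMIs. Whether these values differ between phases was not tested, and phase calls rest on scores from RNA. The S class had 529 to 886 cells per library, the fewest of the phase classes except in the fulvestrant library. The class above 20% mitochondrial UMIs had only 569 DMSO cells and 519 fulvestrant cells.

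**Figure D5:**
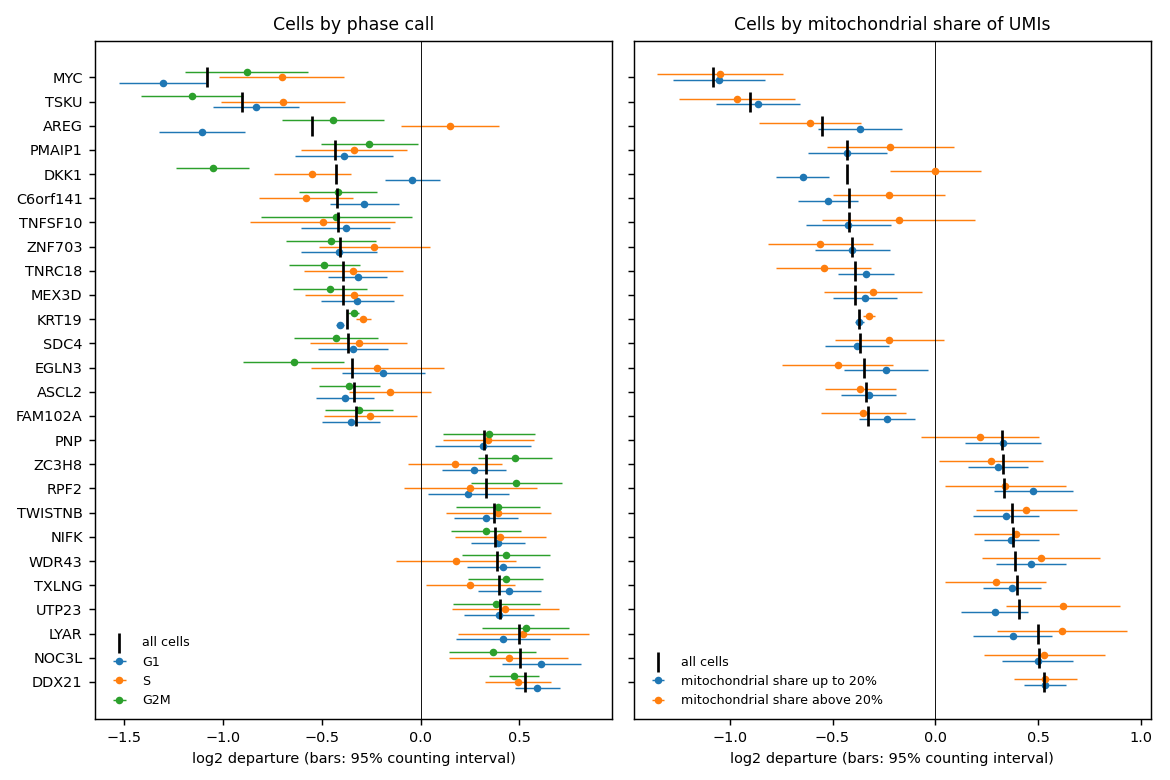
Log2 departure (horizontal axis) of the 26 genes past the limit (rows), in cells by phase call (left) and by mitochondrial share of UMIs (right); bars are 95% counting intervals and the black mark is the value in all cells. MYC and DDX21 keep their side in every class, while AREG ranges from -1.11 to 0.15 by phase.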

How the data were processed

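Single-cell RNA-seq counts of BT474 cells were used. The authors deposited whole-number UMI counts per gene and barcode, made with Cell Ranger 3.1.0 on hg19 per the submitters' processing notes, with no barcode filter. The number that ends each barcode was matched to the number each sample title starts with. UMIs of cells (at least 5000 UMIs and 500 genes, at most 50% mitochondrial) were summed per library and divided by the library total (82173894 to 101920190), so precision follows each gene's UMIs. Intervals combine exact Poisson limits of the 4 counts by the MOVER method. A departure of at least 1.25-fold was counted. With 1 library per group nothing was tested. Doublets were not called; leaving out the top 5% of cells by UMIs was an alternative. Phases were called with scanpy 1.11.5, and figures and sums made with numpy 2.4.6, pandas 2.3.3, scipy 1.17.1 and matplotlib 3.10.9. The calculation was tested on simulated data.

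The members, the 31 written gene lists (33 with ribosomal protein and mitochondrial genes) and the measures were chosen with earlier results of these data known. Named were MYC, CCND1, AREG, TSKU, BRD8, ESR1, ERBB2, ERBB3, PGR, GREB1, TFF1, GATA3 and DUSP6, the 12 highest and 12 lowest log2 and the 8 highest and 8 lowest linear departures without mitochondrial and ribosomal protein genes, up to 4 per list past the size rule, and genes of opposite sign between drugs' contexts (up to 6) or scales (up to 4). Other genes named were chosen after their values were seen. Alternatives changed the mitochondrial ceiling, UMI minimum, cell calling, scaling, cell weight, pseudocount, level filter, phase and size rule. The 1.1-fold rule was added after seeing the data.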

Additional observations from a re-analysis of the deposited data

Results flagged for a closer look

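In 10 genes the ratio of one drug was at least 1.1-fold in one direction without the other drug and at least 1.1-fold in the other direction with it, with both counting intervals off 0. With 1 library per group the difference was not tested in any of them, and with a log2 ratio of at least 0.32 both ways there was no such gene. The fulvestrant ratio was above 0 alone and below 0 with neratinib in TNFSF10 (0.19 and -0.23, a difference of -0.42), DKK1 (0.19 and -0.24, -0.43), MEX3D (0.17 and -0.22, -0.39), SDC4 (0.21 and -0.16, -0.37), LIN7A (0.17 and -0.15, -0.32) and LRP3 (0.15 and -0.15, -0.30). It was below 0 alone and above 0 with neratinib in NOC3L (-0.36 and 0.14, 0.50), UTP23 (-0.24 and 0.16, 0.40) and TWISTNB (-0.14 and 0.23, 0.37). The neratinib ratio was above 0 alone and below 0 with fulvestrant in TNRC18 (0.15 and -0.24, -0.39), and the reverse in UTP23 (-0.21 and 0.20, 0.40). Such reversals over all cells did not hold in every class of cells. For DKK1, fulvestrant alone was below DMSO in G1 cells (31.5 against 34.8 CPM). For TNFSF10 it was so in cells above 20% mitochondrial UMIs (10.99 against 11.56 CPM). For NOC3L, both drugs were below neratinib alone in S cells (16.3 against 16.7 CPM) and G2M cells (19.7 against 20.2 CPM). LIN7A, a polarity scaffold gene, and LRP3, a receptor of the LDL family, were under the limit for the departure.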

How the results depend on the processing

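No paired analysis was possible because each group has 1 library, which also left no replicate to leave out. In 13 other choices of cells, scaling, weight and pseudocount, the 26 genes past the limit kept their direction, except AREG, which was at 0.15 in S cells. MYC, TSKU, TNFSF10, TWISTNB, NIFK, LYAR, NOC3L and DDX21 stayed past the limit in all 13. PNP did so in 6, ZC3H8 in 5, and RPF2, EGLN3 and FAM102A in 7. Cells above 20% mitochondrial UMIs on their own were not among the 13 choices. In those cells TNFSF10 was at -0.18 [-0.55, 0.19], while the other genes past the limit in all 13 stayed past it. The counts moved with the level filter, within phases and with the size rule. With a mean of at least 50 CPM, 1 gene was above and 2 below (linear scale, 2 and 1), and with at least 1 CPM, 381 and 316 (linear 353 and 210), where counts are few. In G1 cells 21 were above and 26 below (16 below on the linear scale), in S cells 63 and 33 (linear 38 and 14), and in G2M cells 31 and 44 (linear 26 and 20), with fewer cells in each class. At 1.5-fold 0 were above and 2 below, at 1.1-fold 287 and 238, and at 50% of the mean CPM 3 and 1 on the linear scale. The cause of the other shifts was not tested. Depth limits the genes of 20 to 50 CPM, whose 95% counting intervals had a median half-width of 0.111, beside 0.018 above 500 CPM.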

Other observations

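MUCL1 and TCN1, chosen after their values were seen, varied between classes of cells. MUCL1, a small secreted mucin, at 506 (DMSO), 391 (fulvestrant), 470 (neratinib) and 443 CPM (both drugs), had a departure of 0.29 in all cells, 0.65 in G1 cells, -0.06 in S cells and -0.03 in G2M cells. TCN1, a vitamin B12 carrier, was at 0.12 in all cells, 0.01 in cells up to 20% mitochondrial UMIs and 0.67 in those above. TFF3, another secreted product, was at 0.11, 0.12 and 0.08 by phase. Differences between classes were not tested.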
